A study of Mus musculus with 4 samples.

Results

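The colony-stimulating factor (CSF) ligands and receptors of macrophages were examined in mouse alveolar macrophages (AMs), which live in the air spaces of the lung. The set held 7 of the 54532 genes of the count table, taken by gene name. The ligand genes were Csf1, which encodes M-CSF, Csf2, which encodes GM-CSF, and Il34. The receptor genes were Csf1r, Csf2ra, Csf2rb and Csf2rb2. The comparison was of 2 Control with 2 Tumor libraries. Control AMs came from mice without a tumor. Tumor AMs came from mice that had carried a primary 4T1 tumor, grown from a mouse mammary carcinoma line placed in the mammary fat pad, for 2 weeks. All mice were female and wild type (WT) on the BALB/c background, and the labels give no difference between the groups but the tumor. The labels did not say whether mice were pooled or how the AMs were purified, so p-values measure only the spread between these libraries, which may be technical.

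GM-CSF signals through an alpha chain, encoded by Csf2ra, that binds the ligand, and a beta chain, encoded by Csf2rb, that is shared with the receptors for IL-3 and IL-5 and carries the kinase JAK2. Mice have an additional beta chain, encoded by Csf2rb2, that serves IL-3 alone. AMs need GM-CSF from the lung epithelium to mature and to clear surfactant, whereas most other tissue macrophages rely on CSF1R, a receptor tyrosine kinase bound by M-CSF and by IL-34.

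Libraries held between 16167147 and 19205737 counts, and a value of 3 counts, taken as the floor of detection, corresponded to between 0.156 and 0.186 CPM, the count scaled to the size of the library. The pairs of libraries correlated at 0.994 in Control and 0.992 in Tumor (Pearson, across genes, which are not independent replicates) and differed by more than sampling noise, so neither pair was 1 library deposited under 2 names. Whether they are separate animals is not shown by this. AM markers were abundant in every library, with summed levels of 19349 and 19446 CPM in Control against 13361 and 13447 CPM in Tumor. The Tumor libraries also held markers of cells other than AMs. Neutrophil markers summed to 47.8 and 48.0 CPM in Control against 3871 and 3824 CPM in Tumor. Eosinophil markers summed to 0.373 and 0.507 against 2715 and 2671 CPM. Basophil and mast cell markers summed to 2.29 and 2.03 against 523.1 and 529.3 CPM, mostly Hdc at 467.8 and 479.1 CPM in Tumor. Hepatocyte markers summed to 0.0533 and 0.190 against 600.0 and 606.3 CPM. These 4 lists were chosen with earlier results of these data known. All 26 of their genes were called higher in Tumor, beside 29.0% of all genes tested. These levels in Tumor go against the label of AMs alone.

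The beta chain genes are neighbours and close copies, which bears on how far their counts can be told apart. Csf2rb (ENSMUSG00000071713) lies at chr15:78325752-78353847 on the plus strand of GRCm38 and Csf2rb2 (ENSMUSG00000071714) at chr15:78282507-78305721 on the minus strand, with 20030 bases between them. Over 2628 aligned coding positions of the longest coding transcript of each gene, 95.2% were identical, and the longest identical run was 242 bases. The 90-base coding window with the most differences is shown for each gene, 5′ to 3′ on the coding strand, with the 16 bases that differ in capitals. It lies in exon 5 of Csf2rb at chr15:78338897-78338986 and in exon 4 of Csf2rb2 at chr15:78294345-78294434.
Csf2rb: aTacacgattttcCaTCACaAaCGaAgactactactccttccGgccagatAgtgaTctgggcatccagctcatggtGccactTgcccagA
Csf2rb2: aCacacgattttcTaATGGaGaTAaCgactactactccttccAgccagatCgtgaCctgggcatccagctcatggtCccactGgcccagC
The window with the fewest differences had 0 mismatches and is shown because a read inside it fits both genes. It lies in exon 9 of Csf2rb at chr15:78341658-78341747 and in exon 8 of Csf2rb2 at chr15:78291563-78291652.
Csf2rb and Csf2rb2: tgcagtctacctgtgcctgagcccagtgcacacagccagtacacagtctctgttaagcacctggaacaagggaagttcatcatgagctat
Of all windows of 75 bases in the Csf2rb2 transcript, 11.1% occurred exactly in that of Csf2rb, and of all windows of 150 bases 3.59% did. The converse shares for Csf2rb were 10.7% and 3.47%. These sequences come from the reference strain, not from the mice studied. How reads with several matches were counted is not given in the sources used here.

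Promoter sequence, the 250 bases before each gene's start, was available from RefSeq (GRCm38.p6) for 4 of the 6 members looked for. For Csf1, Csf2ra and Csf2rb2 the RefSeq start was that of the count table. For Csf2 it lay upstream of the start in the table, so its window was not used. The promoters of 2 receptor genes that both fell under TMM, the main scaling, are shown 5′ to 3′ on the gene's strand, with motif matches in capitals. Csf2ra lies on the minus strand and its promoter at chr19:61228419-61228668, with 64.8% GC.
Csf2ra: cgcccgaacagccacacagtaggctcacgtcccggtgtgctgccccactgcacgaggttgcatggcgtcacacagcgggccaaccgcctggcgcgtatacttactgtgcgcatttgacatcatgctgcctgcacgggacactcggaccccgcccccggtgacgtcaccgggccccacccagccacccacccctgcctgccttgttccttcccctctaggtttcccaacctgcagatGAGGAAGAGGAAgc
The capitals mark 2 adjacent copies of GAGGAA, the core bound by PU.1, a transcription factor of macrophages. This core occurred on either strand in 23.3% of 32851 promoters of the same length. The promoter of Csf2rb2, also on the minus strand, lies at chr15:78305722-78305971, with 56.4% GC.
Csf2rb2: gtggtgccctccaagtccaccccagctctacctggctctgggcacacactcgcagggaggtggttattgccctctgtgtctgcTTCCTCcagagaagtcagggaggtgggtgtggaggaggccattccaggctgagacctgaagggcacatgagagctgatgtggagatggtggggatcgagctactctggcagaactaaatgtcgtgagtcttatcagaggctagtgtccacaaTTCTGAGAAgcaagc
The capitals mark TTCCTC, the PU.1 core on the opposite strand, at position -167 from the start, and TTCTGAGAA at position -15, which matches the STAT motif TTCNNNGAA found in 7.02% of promoters. The promoter of Csf1 held no match to these motifs. Neither GCGTG, the core of the AHR motif (28.2% of promoters), nor the TATA box TATAAA (12.4% of promoters) occurred on either strand in any of these 3 promoters. A match describes letters in this window, not a bound site.

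All 5 members with enough counts to be tested were called in Tumor against Control, 2 of them higher and 3 lower, at an adjusted p under 0.05 (edgeR quasi-likelihood test, Benjamini-Hochberg adjustment over 14256 genes). Csf1 rose 12.2-fold, Csf1r rose 1.10-fold, and the 3 genes of the GM-CSF and IL-3 receptor chains fell by between 1.29-fold and 1.60-fold. Csf2 and Il34 were too low for the test. Over all genes tested 53.8% were called, 29.0% higher and 24.8% lower, so a call did not set a member apart from other genes and the sizes below carry the description. The main scaling was TMM, which sets the median log2 fold change of all genes tested close to 0 (0.02). Scaling on the AM marker genes instead moved that median to 0.51, and the share of calls that were higher from 53.9% to 93.2%.

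**Figure D1:**
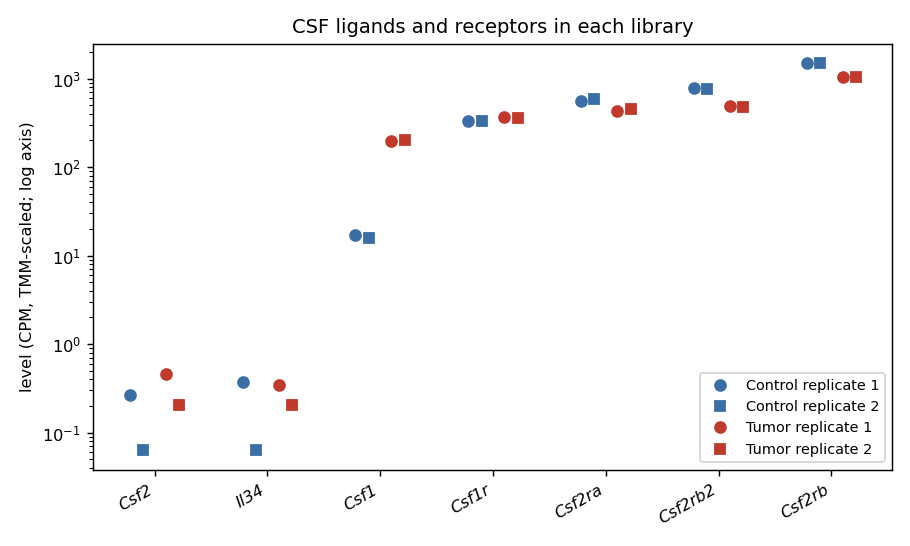
Level of each of the 7 genes in each library, in CPM after TMM scaling on a log axis, with blue for Control, red for Tumor, circles for replicate 1 and squares for replicate 2. Csf1 stood at 17.2 and 15.7 CPM in Control and 197.6 and 202.0 CPM in Tumor, while the receptor genes shifted by far less and Csf2 and Il34 lay near the floor.

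Among the ligands, Csf1 (ENSMUSG00000014599, chr3:107741048-107760469, minus strand) had 322 and 247 counts in Control and 3422 and 3963 counts in Tumor. The levels were 17.2 and 15.7 CPM in Control and 197.6 and 202.0 CPM in Tumor, so both Tumor libraries lay far above both Control libraries. The mean rose from 16.4 ± 1.08 to 199.8 ± 3.08 CPM (SD, n = 2 each). The log2 fold change was 3.60 ± 0.0562 (SE; edgeR adjusted p = 8.76e-28), and 4.98% of genes tested had a larger one. Csf1 encodes the secreted and membrane-bound growth factor that keeps CSF1R-dependent macrophages alive. Per length, its level went from 3.11 to 37.8 RPKM, which is CPM divided by gene length in kilobases, that is, from above 44.5% of genes tested to above 90.8% of them. In bulk libraries, fewer cells of a type and less RNA per cell cannot be told apart, and neither can more cells of a type and more RNA per cell. The markers of neutrophils, eosinophils, basophils and mast cells, and hepatocytes rose with Csf1. Their part in its rise was not tested.

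Csf2 (ENSMUSG00000018916, chr11:54247271-54249667, minus strand) had 5 and 1 counts in Control and 8 and 4 counts in Tumor. The groups overlapped, since Control replicate 1 exceeded Tumor replicate 2. The rate ratio of the summed counts was 1.87, with an exact 95% interval from 0.649 to 6.07 that covers counting error only. GM-CSF in the lung is made mainly by epithelial and lymphoid cells, and a change of Csf2 was not detectable at this depth (edgeR adjusted p = 0.586 when low genes were kept). The gene shares 96 exonic bases with the antisense gene Gm12223, whose reads cannot be separated without strand.

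Il34 (ENSMUSG00000031750, chr8:110741829-110805924, minus strand), the alternative ligand of CSF1R made by neurons and keratinocytes, had 7 and 1 counts in Control and 6 and 4 counts in Tumor. Again the groups overlapped. The gene shares 97 exonic bases with Gm15894 and Gm15895 on the opposite strand. The rate ratio was 1.17, with an exact 95% interval from 0.415 to 3.41, and a change was not detectable (edgeR adjusted p = 0.881 when low genes were kept). Of the 2 ligands of CSF1R, Csf1 alone had more than 10 counts in a library.

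Among the receptors, Csf1r (ENSMUSG00000024621, chr18:61105572-61132149, plus strand) had 6212 and 5250 counts in Control and 6389 and 7070 counts in Tumor. The levels were 331.4 and 332.6 CPM in Control and 368.9 and 360.3 CPM in Tumor, which did not overlap. The rise of 1.10-fold was small beside that of its ligand Csf1, with means of 332.0 ± 0.881 and 364.6 ± 6.10 CPM (SD, n = 2 each). The log2 fold change was 0.13 ± 0.0278 (SE; edgeR adjusted p = 0.000158), and 40.0% of genes tested had a larger one. Csf1r shares 873 exonic bases with Hmgxb3 on the opposite strand, so some reads could belong to either gene.

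Csf2ra (ENSMUSG00000059326, chr19:61224402-61228418, minus strand), the ligand-binding chain of the GM-CSF receptor, had 10399 and 9172 counts in Control and 7512 and 8771 counts in Tumor. The levels were 554.8 and 581.2 CPM in Control and 433.8 and 447.0 CPM in Tumor. Both Tumor libraries lay below both Control libraries, and the mean was 1.29-fold lower (568.0 ± 18.7 against 440.4 ± 9.34 CPM, SD, n = 2 each). The log2 fold change was -0.37 ± 0.0268 (SE; edgeR adjusted p = 2.44e-12).

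Csf2rb, the signalling chain shared with the IL-3 and IL-5 receptors, had 27702 and 23425 counts in Control and 18206 and 20611 counts in Tumor. Its levels of 1477.9 and 1484.2 CPM in Control and 1051.3 and 1050.4 CPM in Tumor were the highest of the 7 genes in CPM. The groups did not overlap, and the mean was 1.41-fold lower in Tumor (log2 fold change -0.49 ± 0.0189, SE; edgeR adjusted p = 9.73e-19).

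Csf2rb2, the chain that serves IL-3 alone, had 14560 and 12042 counts in Control and 8453 and 9338 counts in Tumor. The levels were 776.8 and 763.0 CPM in Control and 488.1 and 475.9 CPM in Tumor, again without overlap. This was the largest fall of the 7 genes, 1.60-fold (log2 fold change -0.68 ± 0.0238, SE; edgeR adjusted p = 1.47e-19), and 7.70% of genes tested had a more negative value. With the counts of Csf2rb and Csf2rb2 summed to 1 feature, which does not depend on how reads were split between them, the log2 fold change was -0.55 ± 0.0173 (SE; edgeR adjusted p = 8.52e-21).

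These falls depended on what the libraries were scaled to. Summed AM markers were also lower in Tumor, and 13 of the 14 AM marker genes were called lower, beside 24.8% of all genes tested. Scaled on those markers, Csf2ra was higher in Tumor (log2 fold change 0.13, edgeR adjusted p = 8.93e-05), Csf2rb did not pass the test (-0.000620, adjusted p = 0.978), Csf2rb2 remained lower (-0.18) and Csf1r rose by 0.63. The adjusted p of Csf2ra and Csf2rb given here were their highest over 13 alternatives. Against the median of 0.51 over all genes tested under that scaling, Csf1r lay above and the other 3 receptor genes lay below. Under TMM, DESeq2 size factors and total counts, the 4 receptor genes kept their directions and calls. The direction for Csf1 held under all 4 scalings, with log2 fold changes between 3.60 and 4.09. Which part of the receptor falls went with the lower AM marker share was not tested.

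**Figure D2:**
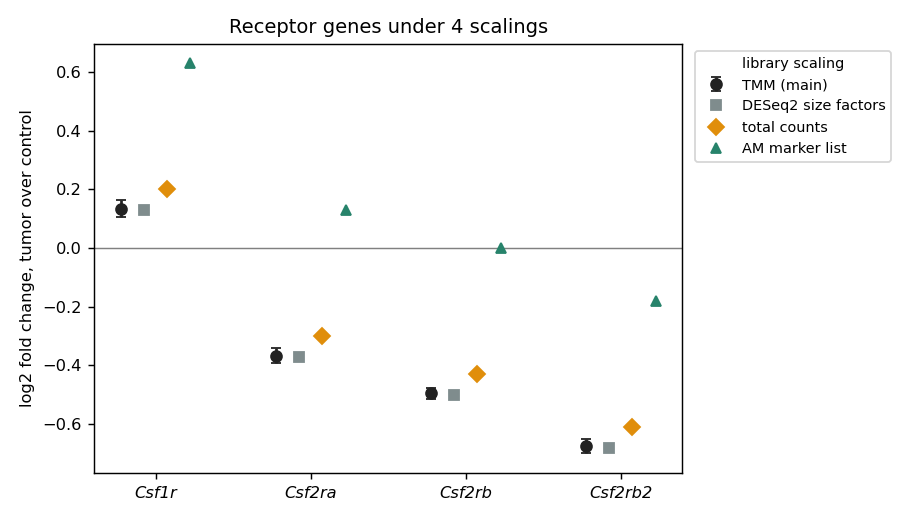
Log2 fold change of Csf1r, Csf2ra, Csf2rb and Csf2rb2, Tumor over Control, under 4 scalings of the libraries, with error bars of 1 SE on the TMM values alone. The order of the 4 genes is the same under each scaling, while the zero line falls at a different place: Csf2ra went from -0.37 under TMM to 0.13 on the AM marker list.

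Ratios of members within a library do not depend on scaling, but they can move with the mix of cells in it. The part of that mix in the ratios below was not tested. Csf2rb2 made up 34.5% and 34.0% of the summed beta chain counts in Control and 31.7% and 31.2% in Tumor. The Control pair lay above the Tumor pair, with means of 34.2% ± 0.353 and 31.4% ± 0.373 (SD, n = 2 each), but no exact permutation test of 2 against 2 libraries can go below a two-sided p = 0.333, which is what this ratio and the other 4 ratios of members gave. The share may also move with reads that fit both genes.

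The alpha to beta chain ratio of the GM-CSF receptor, Csf2ra to Csf2rb per length, was 1.48 and 1.54 in Control and 1.62 and 1.67 in Tumor. The ratio of Csf1r to Csf2ra per length, M-CSF receptor over GM-CSF receptor, was 0.226 and 0.217 in Control and 0.322 and 0.305 in Tumor, a log2 difference of 0.50. That of the ligand Csf1 to its receptor Csf1r went from 0.0479 and 0.0435 to 0.495 and 0.519, a log2 difference of 3.47. For each of these ratios, both Tumor libraries lay above both Control libraries.

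In order of level per length, the members in Control were Csf2ra at 307.2 ± 10.1, Csf2rb at 203.5 ± 0.620, Csf2rb2 at 162.4 ± 2.05, Csf1r at 68.0 ± 0.180 and Csf1 at 3.11 ± 0.205 RPKM (SD, n = 2). The order in Tumor was the same, at 238.2 ± 5.05, 144.4 ± 0.0887, 101.7 ± 1.82, 74.6 ± 1.25 and 37.8 ± 0.584 RPKM, with neighbours apart by more than their SDs. Csf2 and Il34, at or below 0.416 RPKM on average, did not differ beyond their spread. The order of the first 2 genes rests on the length used. With the longest coding transcript in place of the gene length of the table, a choice made after the data were seen, the Csf2ra to Csf2rb ratio was 0.995 and 1.04 in Control and 1.09 and 1.13 in Tumor. In Control, Csf2ra stood above 99.1% of genes tested and in Tumor above 98.8%, both by RPKM with the table's length.

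Around these members, the related receptors held large rises. Of 9 receptor genes that share the beta chain, belong to the CSF1R kinase class, bind G-CSF or also bind IL-34, 7 were tested, 4 rose, 0 fell and 3 did not pass, beside 29.0% higher and 24.8% lower over all genes tested, with a median log2 fold change of 3.32 beside 0.02 over all genes tested. Csf3r, the G-CSF receptor of neutrophils, had 1236 and 1035 counts in Control and 11216 and 13107 in Tumor, a rise from 65.8 to 657.8 CPM on average (log2 fold change 3.32 ± 0.0331, SE; edgeR adjusted p = 1.77e-32). Kit, the stem cell factor receptor of mast cells and progenitors, had 9 and 10 counts in Control and 823 and 887 in Tumor (6.38 ± 0.167, edgeR adjusted p = 1.33e-22). Flt3, the receptor of dendritic cell progenitors, had 9 and 5 against 63 and 90 counts (3.33 ± 0.356, edgeR adjusted p = 5.78e-09).

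Chains that pair with CSF2RB did not all change. Il5ra, the IL-5-binding chain of eosinophils and B cells, had 5 and 2 counts in Control, the second at the floor, and 337 and 401 counts in Tumor (log2 fold change 6.57 ± 0.260, edgeR adjusted p = 2.10e-18). Without Control replicate 1 that value was 7.21. Il3ra, the IL-3-binding chain, had 337 and 270 against 335 and 393 counts and did not pass (0.17 ± 0.103, edgeR adjusted p = 0.181), although it was called higher when scaled on the AM markers (0.66, adjusted p = 1.30e-06, with a highest adjusted p of 0.546 over the alternatives). Thus the IL-5-specific chain rose while both beta chains fell under TMM, in libraries whose eosinophil markers rose together with it. The part of eosinophils in the Il5ra rise, and of neutrophils and mast cells in those of Csf3r and Kit, was not tested. For AMs that it stained, the study gives the phenotype CD45+ CD11b- CD11c+ SiglecF+, a gate that would leave out CD11b+ neutrophils and eosinophils, and for the RNA-seq it says that AMs were purified.

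**Figure D3:**
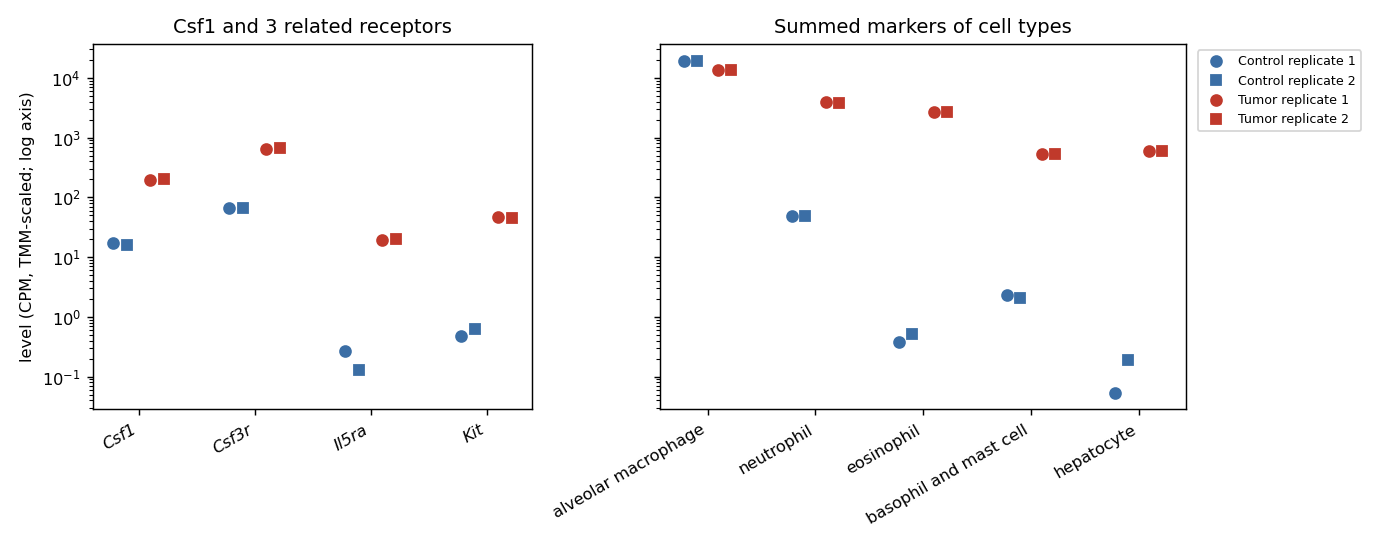
Levels in CPM after TMM scaling, on a log axis shared by both panels, for Csf1, Csf3r, Il5ra and Kit on the left and for the summed markers of 5 cell types on the right, with blue for Control, red for Tumor, circles for replicate 1 and squares for replicate 2. Csf1, the related receptors and the markers of neutrophils, eosinophils, basophils and mast cells, and hepatocytes were higher in both Tumor libraries, and the AM markers, at 19349 and 19446 against 13361 and 13447 CPM, were lower.

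The other marker lists were mixed. Their calls stand beside 29.0% higher and 24.8% lower over all genes tested. Summed monocyte markers were at 20.2 and 20.1 CPM in Control and 66.1 and 62.7 CPM in Tumor, with 4 of 6 genes called higher and 1 lower and Plac8 the most abundant in Tumor (1.23 against 32.9 CPM on average). Summed dendritic cell markers were at 11.3 and 11.4 against 33.7 and 31.2 CPM, with Ccr7 and Cd209a called higher, Clec9a called lower and 2 genes not called. Those of T and innate lymphoid cells were at 10.8 and 11.5 against 20.3 and 21.3 CPM, with 2 of 5 tested genes, Cd3d and Cd3g, called higher. Those of endothelium were at 5.71 and 4.37 against 25.1 and 21.3 CPM, mostly Pecam1 (2.13 against 18.8 CPM on average), with 2 of 4 tested genes called higher. Those of fibroblasts were at 4.05 and 3.55 against 8.14 and 9.68 CPM, with 4 of 5 genes called higher, a median log2 fold change of 2.61, and Pdgfra not called. Alveolar type 2 markers, from cells known to make GM-CSF, were at 220.6 and 219.9 against 190.3 and 195.6 CPM, a sum made up almost wholly of Abca3 (213.2 against 186.2 CPM on average), and of 5 tested genes 0 were called higher and 3, Abca3, Sftpb and Sftpa1, lower. Epithelial markers, which 4T1 cells also express, were at 429.9 and 455.6 against 299.6 and 300.6 CPM, with Krt19 the most abundant. Of these 5 genes 3 were called lower and 2 higher, Krt8 and Krt18, the latter from 0.450 to 6.01 CPM on average. General macrophage and leukocyte markers were at 18653 and 18592 against 14236 and 14070 CPM, mostly Lyz2, with 4 genes called lower and 2, Ptprc and Adgre1, called higher. The genes named here beside the most abundant of a list were chosen after their values were seen. No marker gene was at 0 in all 4 libraries. The most abundant markers of the rising lists were S100a9 (0.669 against 1086 CPM on average), Prg2 (0.0584 against 1636), Hdc (1.87 against 473.5) and Alb, which was at 0 in both Control libraries and at 470.5 CPM in Tumor.

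Among 5 related ligands, 3 were tested, of which 1 rose, 1 fell and 1 did not pass, beside 29.0% higher and 24.8% lower over all genes tested, with a median log2 fold change of -0.75. Flt3l, the ligand of FLT3, had 14 and 14 against 114 and 152 counts (log2 fold change 3.13 ± 0.261, SE; edgeR adjusted p = 3.69e-11). Csf3, which encodes G-CSF, had 16 and 13 against 3 and 3 counts, with a rate ratio of 0.193 and an exact 95% interval from 0.0656 to 0.474. The log2 fold change of Csf3 was -2.32 (edgeR adjusted p = 0.00331). It was as large but not called without Control replicate 1 (-2.30, adjusted p = 0.0972) or without Control replicate 2 (-2.37, adjusted p = 0.0580), fits that leave 1 library in Control, and the highest adjusted p over the alternatives was 0.0972. Kitl was at -0.75 (edgeR adjusted p = 0.0505) and was called lower with DESeq2 size factors. Il3 had 0 counts in every library and Il5 had 1 count in Tumor replicate 1 and 0 elsewhere. The ligands that share CSF2RB were thus at or near the floor in these libraries, whereas Csf1 was not.

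Below the receptors lies the signal relay. Of 16 kinases, adaptors and STAT5 genes, 6 rose, 5 fell and 5 did not pass, beside 29.0% higher and 24.8% lower over all genes tested, with a median log2 fold change of -0.03. Jak2, the kinase bound to the beta chain, was at 55.2 and 56.4 CPM in Control and at 136.6 and 141.5 CPM in Tumor. Its rise of 2.49-fold (log2 fold change 1.32 ± 0.0476, SE; edgeR adjusted p = 2.68e-19) ran opposite to Csf2rb under TMM. Stat5a, at 41.7 and 41.2 against 50.1 and 48.4 CPM, rose by less (0.25 ± 0.0678, edgeR adjusted p = 0.00293). Stat5b, its close relative, was at 75.2 and 73.3 against 112.0 and 112.0 CPM (0.59 ± 0.0467, edgeR adjusted p = 1.18e-11). The kinases Pik3cd and Fes rose by log2 fold changes of 0.91 and 0.64. Under scaling on AM markers all 16 genes were called higher, with a median of 0.47, below the 0.51 of all genes, of whose calls 93.2% were higher.

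Of 13 negative regulators, 7 rose, 4 fell and 2 did not pass (median log2 fold change 0.19), beside 29.0% higher and 24.8% lower over all genes tested. Dok2, an adaptor that dampens kinase signals, rose by 1.88. Socs1 and Socs2, feedback inhibitors of JAK-STAT signals, rose by 1.31 and 0.82, Socs1 from 25 and 12 to 47 and 51 counts. Cish, a feedback target of STAT5, fell slightly (-0.17 ± 0.0462, SE; edgeR adjusted p = 0.00303), did not pass with total counts as library sizes (-0.10, adjusted p = 0.0657) and was at 0.33 on AM markers, below the median of 0.51 over all genes tested under that scaling. Adam17, a protease that sheds CSF1R from the cell surface, was at 460.1 and 446.3 CPM in Control and 281.8 and 287.9 CPM in Tumor (-0.67 ± 0.0280, edgeR adjusted p = 8.04e-18) and was singled out after its value was seen. It was called lower under all 12 alternatives, at -0.18 on AM markers. On AM markers 12 of the 13 genes were called higher and 1 lower, where 93.2% of all calls were higher, with a list median of 0.68 beside 0.51.

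Of 8 transcription factors known to bind Csf1r, 4 rose, 2 fell and 2 did not pass (median log2 fold change 0.18), beside the same shares over all genes tested. Spi1, which encodes PU.1, was at 497.8 and 514.2 CPM in Control and 453.8 and 469.6 CPM in Tumor, a small fall (log2 fold change -0.13 ± 0.0264, SE; edgeR adjusted p = 0.000117) that was 0.36 on AM markers, below the median of 0.51 over all genes tested. Ets1, Ets2 and Cebpa rose by 1.48, 0.55 and 0.34. All 8 were called higher on AM markers, where 93.2% of all calls were higher, with a list median of 0.68 beside 0.51.

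Of the AM genes that depend on GM-CSF, all 12 were called lower under TMM, with a median log2 fold change of -0.41, beside 24.8% lower and a median of 0.02 over all genes tested. The AM marker list, which shares 6 genes with it, had 13 of 14 called lower and a median of -0.47. Fabp4, a fatty acid carrier, had 441 and 427 against 106 and 107 counts (-2.13 ± 0.129, SE; edgeR adjusted p = 3.54e-14). Car4, a membrane carbonic anhydrase of AMs, had 8927 and 7518 against 4149 and 4673 counts, so that its Tumor mean was 0.502 of the Control mean. Bhlhe41, a transcription factor of AMs, was at a log2 fold change of -0.98. Pparg, the factor induced by GM-CSF that directs AM identity, fell by less (-0.22 ± 0.0337, edgeR adjusted p = 3.29e-06). On AM markers 6 of the 12 were called higher and 4 lower, where 93.2% of all calls were higher, and Pparg was at 0.28, with a list median of 0.09 beside 0.51. Since 6 of the 12 genes are themselves AM markers, the list and that scaling are not independent.

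Of 12 genes typical of CSF1-dependent tissue macrophages, 11 were tested, 1 rose, 6 fell and 4 did not pass, beside 29.0% higher and 24.8% lower over all genes tested, with a median log2 fold change of -0.72. Cd163, a scavenger receptor, had 122 and 87 against 22 and 31 counts (-2.07 ± 0.242, SE; edgeR adjusted p = 3.01e-08). Cx3cr1, the fractalkine receptor, had 52 and 58 against 19 and 17 counts (-1.71), and C1qb, a complement chain, was at -1.27. The member that rose was Apoe, named after its value was seen, at 0.22 (edgeR adjusted p = 2.11e-05). On AM markers 3 were called higher and 6 lower, where 93.2% of all calls were higher, with a median of -0.22 beside 0.51 over all genes tested.

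**Figure D4:**
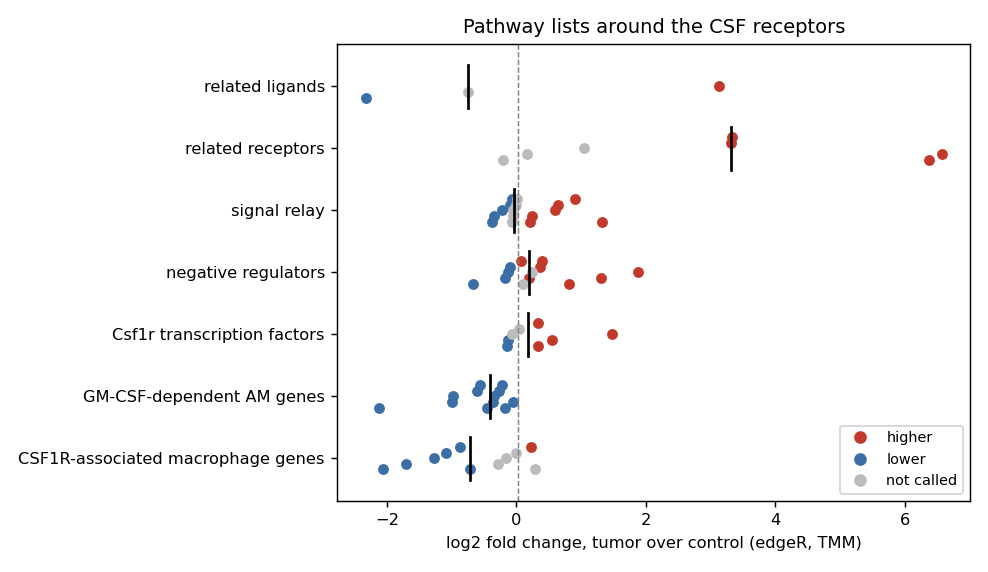
Log2 fold change, Tumor over Control under TMM, of every tested gene in 7 lists around the CSF receptors, with red for called higher, blue for called lower and grey for not called. Black bars mark the list medians and the dashed line the median of all genes tested at 0.02. The related receptors reach furthest to the right, with a median of 3.32, and the 12 GM-CSF-dependent AM genes all lie to the left of 0.

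The genes whose pattern over the 4 libraries was most like that of a member were found by the root mean square difference of mean-centred log2 CPM among 8375 genes with a mean of at least 10 CPM. For Csf1 these were D630045J12Rik, Slc11a1 and Cmah, at differences of 0.0421, 0.0665 and 0.0671. For Csf1r they were Ppp6r1, Nprl2 and Dyrk1a, for Csf2ra Akap7, Cdk5rap2 and Man2a2, for Csf2rb Clec16a, Prkch and Myo1c, and for Csf2rb2 Slco2b1 and Fpr1, all at differences between 0.00432 and 0.00866. With 4 libraries in 2 groups such likeness is mainly a like fold change and nothing more was read from it.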

How the data were processed

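RNA of AMs was extracted with TRIzol and made into libraries with a NEBNext Ultra kit, per the labels. The authors aligned paired-end Illumina reads with HISAT2 2.0.5 and counted them with featureCounts. The deposited values are raw counts per gene, 1 column per library, with gene length beside them. DESeq2 is also named in the submitters' processing notes. Build, annotation, strandedness and handling of multiply matching reads are not given in the sources used here. Of 54532 gene identifiers, 54409 were found in GENCODE M21 (GRCm38), and 98.3% of those had identical coordinates, so GRCm38 positions are printed.

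Groups came from the titles. Counts were tested in R 4.3.3 with edgeR 4.0.16 (glmQLFit, glmQLFTest) after filterByExpr at a minimum count of 10, which left 14256 genes tested and 40276 untested, with TMM factors between 0.977 and 1.024 and 2 residual degrees of freedom. Benjamini-Hochberg adjustment ran over all genes tested, at a threshold of 0.05. Each SD was taken across a group's 2 libraries. Rate ratios of low genes have exact 95% intervals for counting error only. The method was tested on simulated data. Alternatives were 3 other scalings (DESeq2 size factors, total counts, and a median of ratios over the 14 AM markers), 2 other filters, DESeq2 1.42.0 (Wald), limma-voom (limma 3.58.1), a replicate block, summed Csf2rb and Csf2rb2, 2 other length choices for ratios, and leaving out each library.

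Members, the 7 pathway lists and the 13 marker lists were chosen with earlier results of these data known. Named were the members, 9 set genes (Jak2, Stat5a, Stat5b, Il3ra, Il5ra, Csf3r, Cish, Spi1 and Pparg), the 3 called genes of each list with the largest change, the 3 genes most like each tested member (1 of those for Csf2rb2 is not reported here), and the most abundant marker of a list.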

Additional observations from a re-analysis of the deposited data

How the results depend on the processing

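The directions and calls of the 5 tested members held under the alternatives run, except when libraries were scaled on AM markers, where Csf2ra was at 0.13 (adjusted p = 8.93e-05) and Csf2rb at -0.000620 (adjusted p = 0.978). The same scaling turned Cish to 0.33, Spi1 to 0.36 and Pparg to 0.28. Of 332 values of 28 named list genes under alternatives, 325 kept direction and call. The number of genes called was 10674 on AM markers, 6370 by the DESeq2 Wald test, 7582 by limma-voom, 7917 with no filter and 6517 with at least 10 counts in every library, against 7671.

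Dropping 1 library at a time, with the lone library of its group assumed to vary like the other group, gave 6515 to 7470 genes called and 49 to 53 called list genes, and log2 fold changes of 3.52 to 3.66 for Csf1. With a replicate block 7446 genes were called, Csf2ra was at -0.37, and no member's call changed. Same-numbered libraries did not deviate together (correlation 0.0271 over 10750 genes). With 2 libraries per group, this value cannot show whether they share a batch or are paired.

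The exact permutation test of the ratios, with 2 libraries per group, cannot go below p = 0.333, and no other test of them was run. Depth limits Csf2 and Il34, and unknown strandedness and multiple matching limit Csf1r, Csf2, Il34, Csf2rb and Csf2rb2.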
